A study of Homo sapiens with 6 samples.

Results

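The spindle assembly checkpoint genes MAD2L1, MAD1L1, BUB1, BUB1B, BUB3, TTK, CDC20, ZWINT, ZW10 and MAD2L2 were followed by RNA-seq in the endometrial cancer line Ishikawa, of human origin. RNA was taken 48 hours after lipofection, with a non-targeting control in 1 group (siNC) and with siRNA to TCF19 in the other (siTCF19). They were taken by gene symbol, 1 row each, from a table of 58735 genes, and all 10 were among the 17299 genes with enough counts to be tested. The genes belong together by known function, but they were also selected on the siTCF19 to siNC difference of MAD2L1 in these same libraries. Differences between siTCF19 and siNC are therefore given for the 10 genes as a description. Where a member is said to be called, that places it against the threshold used for all genes and is no test of the selection. Each group had 3 libraries of 14680022 to 16244705 counts. All cells received serum and the lipofection reagent, the labels do not tie the 3 libraries to separate cultures, and for the siRNAs the sequence and number used are not given in the sources here. The p-values below therefore rest on the variation from library to library alone, and part or all of it may be technical.

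The checkpoint delays anaphase until every chromosome is attached to the spindle. At an unattached kinetochore the kinase TTK (also called MPS1) starts the signal, BUB1 and BUB3 are recruited, and a MAD1L1 and MAD2L1 complex converts further MAD2L1 protein to its closed form. Closed MAD2L1 joins BUB1B (BUBR1), BUB3 and CDC20 in the mitotic checkpoint complex, which blocks the anaphase-promoting complex, the ubiquitin ligase that CDC20 would otherwise activate. ZWINT links the outer kinetochore to the complex of ZW10, which brings MAD1L1 to kinetochores. MAD2L2 (REV7) is related in fold to MAD2L1 and is best known for work in translesion DNA synthesis and DNA break repair.

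TCF19 itself checked the labels. Its level in CPM (counts scaled to a common library size, with TMM factors) was 176.8, 184.9 and 176.8 in siNC and 42.71, 35.33 and 39.07 in siTCF19. The 8 epithelial markers of the labelled cell type stood between 10.99 CPM (MUC1) and 881.1 CPM (KRT8) in siNC. In siTCF19 KRT8 (-0.40, log2 fold change) and KRT18 (-0.43) were called lower, KRT19 (0.44), CDH1 (0.61) and MUC1 (0.70) higher, and EPCAM, PAX8 and CLDN4 were not called. The summed level of 5 leukocyte markers was 1.44 to 4.17 CPM in siNC and 1.33 to 1.6 CPM in siTCF19, and that of 6 stromal fibroblast markers 17.1 to 19.2 CPM and 26 to 29.7 CPM, nearly all of it COL1A1, with DCN at 0 in every library. The 4 endothelial markers summed to 6.56 to 6.99 CPM and 13.8 to 17.3 CPM, most of it VWF, which was called higher (5.13 to 15.5 CPM). CDH5 of the same list was called lower (0.98 to 0.26 CPM), PECAM1 stood at 0.41 to 0.95 CPM in siNC and at 0 to 0.19 CPM in siTCF19, and KDR held at most 1 count. Whether these markers have a part in the differences below was not tested. In a test of all genes with edgeR, 41.5% were called at an adjusted p under 0.05, 20.7% higher and 20.8% lower in siTCF19.

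MAD2L1 had the lowest siTCF19 to siNC ratio of the 10 transcripts, and it was the one member whose 3' untranslated region (3' UTR) held either of the words TGGTCAA and GGTCAAA. These words are shown because an earlier analysis of the same libraries found transcripts that carry them to lie lower in siTCF19, so they give no independent support here. The longest annotated 3' UTR of MAD2L1 is 4510 bases, and the words stand at 2 places in it, starting at bases 334 and 2059. The stretches below are read along the transcript, 5′ to 3′, with the words in capitals. The first lies at chr4:120059767-120059795 and the second at chr4:120058041-120058070 on hg38, both on the minus strand in the 3' UTR of MAD2L1.
MAD2L1 first place: atcagatgtttTGGTCAAgtagtttgact
MAD2L1 second place: cctggccaagaTGGTCAAAccccgtctcta

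The other 9 checkpoint genes held neither word. Apart from BUB3 (6632 bases), their 3' UTRs were of 74 (CDC20) to 999 bases (ZWINT), much shorter than that of MAD2L1. The members therefore give little contrast at a like length. Of 13179 tested protein-coding genes with a 3' UTR of at least 50 bases, 13% carried a word. Long UTRs held one more often: of 1558 genes with a UTR within 25% of MAD2L1's length, 28.8% did. The median log2 fold change was -0.04 over the 1715 carriers, of which 31.5% were called lower and 21.6% higher, and 0.00 over the 11464 others, of which 23.5% were called lower and 24.2% higher. Among genes with a UTR near MAD2L1's length, 29.5% of 448 carriers were called lower and 23.7% higher. Of the 1110 others, 19.5% were called lower and 35% higher. The median log2 fold changes were -0.02 for these carriers and 0.07 for these others. Whether the words have a part in the MAD2L1 difference was not tested.

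Genes that peak in mitosis often share promoter elements near the start site, among them the cell cycle genes homology region (CHR, letters TTTGAA) and CCAAT boxes. RefSeq promoter sequences (GRCh38.p14, 250 bases before to 50 after the start) were matched for 8 of the 10 genes, all but BUB3 and TTK. On either strand, TTTGAA was found in 5 of the 8, namely MAD2L1, BUB1B, CDC20, ZWINT and ZW10, against 15.4% of all 27305 promoters of this length and 12% of those of protein-coding genes. CCAAT was found in 5 of the 8 (MAD2L1, BUB1, CDC20, ZWINT and ZW10), against 35.7% of all promoters and 36.4% of those of protein-coding genes. An E2F-type word (TTGGCGC, or with other middle letters the word TTCGCGC, or the further variant TTCCCGC) was in 3 of the 8 (MAD2L1, ZWINT and ZW10). The share was 11.2% of all promoters and 14.9% of those of protein-coding genes. In ZW10 one such word overlapped the CCAAT box. MAD1L1 and MAD2L2 had none of these letters in the window. The promoters of the 3 mitotic checkpoint complex subunits with an entry are printed 5′ to 3′ along the gene, with TTTGAA and CCAAT in either orientation in capitals, to show where the letters stand. BUB1B has TTTGAA but no CCAAT, and MAD2L1 and CDC20 have both. Whether these letters have a part in any difference was not tested. TTTGAA begins 25 bases after the start in MAD2L1 and at -23 in BUB1B, and in CDC20 it stands at -65 and, reversed, at -178. They lie at chr4:120066799-120067098 (minus strand), chr15:40160819-40161118 (plus strand) and chr1:43358731-43359030 (plus strand).
MAD2L1 promoter: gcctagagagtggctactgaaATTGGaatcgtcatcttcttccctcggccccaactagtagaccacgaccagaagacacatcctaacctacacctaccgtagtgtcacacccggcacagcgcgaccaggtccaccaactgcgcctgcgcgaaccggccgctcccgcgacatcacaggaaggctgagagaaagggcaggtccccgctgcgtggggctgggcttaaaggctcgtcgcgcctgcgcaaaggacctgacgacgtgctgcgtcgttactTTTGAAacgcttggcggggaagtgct
BUB1B promoter: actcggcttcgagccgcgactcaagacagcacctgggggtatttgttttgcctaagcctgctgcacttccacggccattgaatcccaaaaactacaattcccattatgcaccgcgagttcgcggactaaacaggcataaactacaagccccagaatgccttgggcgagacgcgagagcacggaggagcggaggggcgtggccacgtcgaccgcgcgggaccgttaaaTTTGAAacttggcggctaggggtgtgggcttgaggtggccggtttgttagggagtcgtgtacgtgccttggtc
CDC20 promoter: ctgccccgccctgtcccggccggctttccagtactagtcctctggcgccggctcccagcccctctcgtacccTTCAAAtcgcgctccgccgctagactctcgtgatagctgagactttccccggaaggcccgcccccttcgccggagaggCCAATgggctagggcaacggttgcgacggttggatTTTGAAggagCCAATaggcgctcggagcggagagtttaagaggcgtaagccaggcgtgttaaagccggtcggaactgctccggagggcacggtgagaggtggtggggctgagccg

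The mitotic checkpoint complex subunits differed among themselves. MAD2L1 (ENSG00000164109, chromosome 4, 120055608 to 120067074, minus strand) was at 175.4, 158.3 and 169.4 CPM in the 3 siNC libraries and at 94.97, 90.57 and 90.85 CPM in the 3 siTCF19 libraries. All siTCF19 values lay below all siNC values. The means were 167.7 ± 8.70 and 92.13 ± 2.46 CPM (SD, n = 3 per group), a 1.82-fold lower level (95% interval 1.69 to 1.96) and a log2 fold change of -0.86 ± 0.05 (SE). Of all tested genes, 3.36% had a lower log2 fold change. An antisense gene, AC108866.1, shares 44 exon bases with MAD2L1 but held 0 to 9 counts in these libraries.

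CDC20 (ENSG00000117399, chromosome 1, 43358955 to 43363203, plus strand), both the activator of the anaphase-promoting complex and the protein the checkpoint holds back, was at 264.3, 299.7 and 274.3 CPM in siNC and 220.1, 213.5 and 233.2 CPM in siTCF19. The groups did not overlap. Its log2 fold change was -0.33 ± 0.05 (SE), a 1.26-fold lower level. BUB3 (ENSG00000154473, chromosome 10, 123154277 to 123170467, plus strand), a WD-repeat protein that carries BUB1 and BUB1B to kinetochores, was at 180.7, 189 and 186.2 CPM in siNC and 164.8, 174.1 and 168.3 CPM in siTCF19. All siTCF19 values were below all siNC values by a small margin, with a log2 fold change of -0.13 ± 0.05 (SE). That call was lost with library-size-only scaling (-0.07) and when any 1 of 4 libraries was left out: siNC replicate 2 (-0.12) or 3 (-0.13), or siTCF19 replicate 1 (-0.11) or 3 (-0.12).

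BUB1B (ENSG00000156970, chromosome 15, 40161023 to 40221136, plus strand), the pseudokinase subunit of the complex, was at 122.1, 128.4 and 126.6 CPM in siNC and 131.8, 126.2 and 121.9 CPM in siTCF19. Its groups overlapped fully, and the log2 fold change was 0.01 ± 0.05 (SE), with a 95% interval of 0.938 to 1.08 as a fold. A readthrough gene, BUB1B-PAK6, shares 457 exon bases with it and held 0 to 4 counts.

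**Figure D1:**
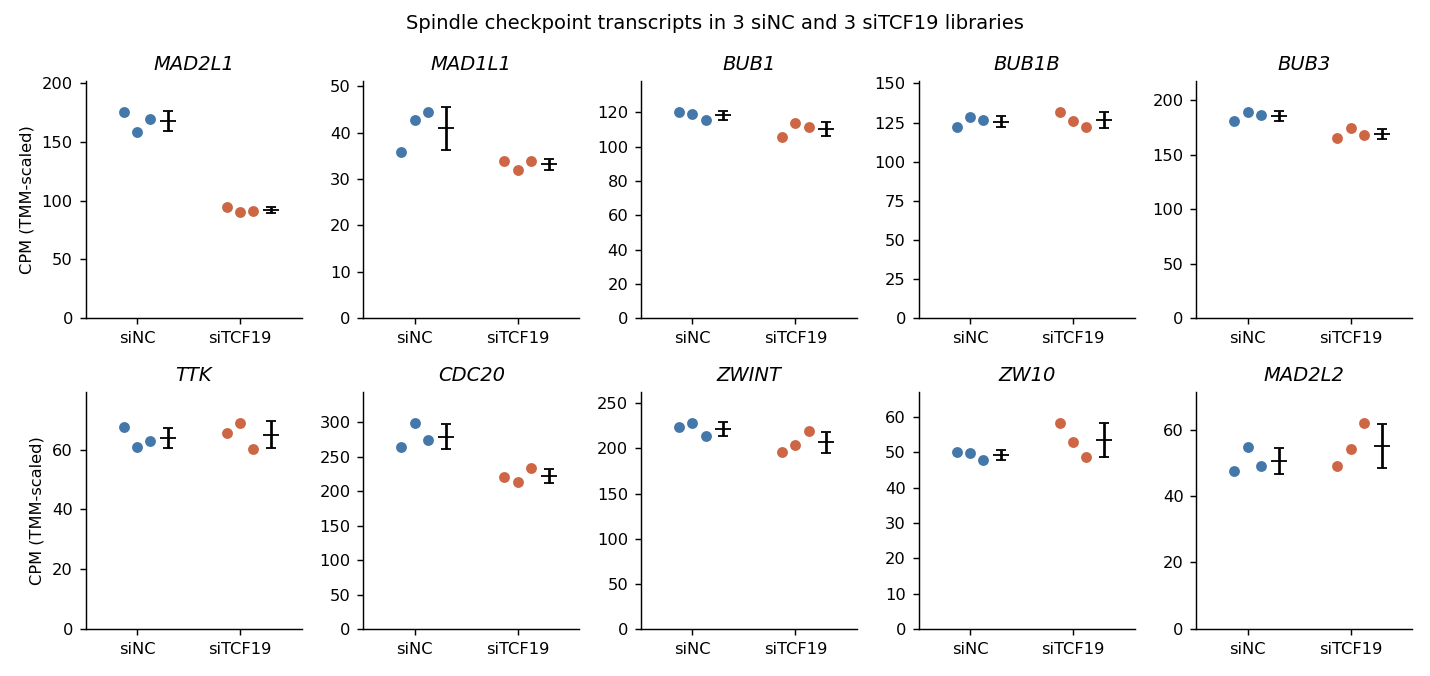
Level of each checkpoint transcript in CPM (vertical axis, from 0) in the 3 siNC (blue) and 3 siTCF19 (orange) libraries, with the mean and SD in black beside each group. MAD2L1 drops from 158.3 to 175.4 CPM in siNC to 90.57 to 94.97 CPM in siTCF19, while BUB1B and TTK overlap between the groups.

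MAD1L1 (ENSG00000002822, chromosome 7, 1815793 to 2233243, minus strand), the coiled-coil protein that holds MAD2L1 at the kinetochore, was the lowest of the 10 by CPM. Its siNC values were 35.74, 42.77 and 44.46 CPM and its siTCF19 values 33.98, 31.86 and 33.79 CPM. The groups did not overlap, but siNC replicate 1 stood close to the siTCF19 libraries. Its log2 fold change was -0.30 ± 0.08 (SE), and it ran from -0.39 without siNC replicate 1 to -0.24 without siNC replicate 3.

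The checkpoint kinases did not pass the threshold. TTK (ENSG00000112742, chromosome 6, 80003887 to 80042527, plus strand) was at 67.76, 61.04 and 63 CPM in siNC and 65.74, 69.06 and 60.22 CPM in siTCF19, a log2 fold change of 0.02 ± 0.06 (SE). The table lists a TTK pseudogene, AC069282.1, with 69 to 93 counts, and reads shared with it would make the TTK value uncertain. BUB1 (ENSG00000169679, chromosome 2, 110637698 to 110678114, minus strand), whose phosphorylation of histone H2A marks the inner centromere, was at 120.3, 118.9 and 115.6 CPM in siNC and 105.8, 114.1 and 111.4 CPM in siTCF19. The BUB1 groups did not overlap although the gene was not called, with a log2 fold change of -0.10 ± 0.05 (SE).

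ZWINT (ENSG00000122952, chromosome 10, 56357228 to 56361275, minus strand) was at 223.3, 228.5 and 213.3 CPM in siNC and 195.9, 204.3 and 219.4 CPM in siTCF19. Here siTCF19 replicate 3 reached into the siNC range, and the log2 fold change of -0.10 ± 0.05 (SE) was not called. It was called without that library, at -0.14. ZW10 (ENSG00000086827, chromosome 11, 113733187 to 113773811, minus strand), which also works with a tethering complex in membrane traffic between mitoses, was at 50.17, 49.84 and 47.73 CPM in siNC and 58.4, 53.03 and 48.74 CPM in siTCF19. MAD2L2 (ENSG00000116670, chromosome 1, 11674480 to 11691650, minus strand) was at 47.42, 54.86 and 49.08 CPM in siNC and 48.97, 54.17 and 62.09 CPM in siTCF19. Their log2 fold changes of 0.12 ± 0.07 and 0.13 ± 0.07 (SE) were not called, and each group pair overlapped. A single library set how near they came: ZW10 was called higher without siTCF19 replicate 3 (0.19) and MAD2L2 without siTCF19 replicate 1 (0.21), and both were with library-size-only scaling (0.18 and 0.19).

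In all, 4 of the 10 genes were called lower by edgeR (MAD2L1, CDC20, MAD1L1 and BUB3) and 0 higher. Of all tested genes 20.8% were called lower and 20.7% higher, and the 4 calls are close to the 41.5% called in either direction. At an unadjusted p under 0.05 the counts were 5 lower and 0 higher. The matching count over all tested genes is not given here, so these cannot be set against a background. DESeq2 and limma-voom each gave 4 lower and 0 higher. Of all 17299 tested genes DESeq2 called 6231 in either direction, 49.67% of them higher. For limma-voom it was 7141, with 49.77% higher. In 5 genes the groups did not overlap, against 49.2% of all tested genes. The median log2 fold change was -0.10 over the 10 genes and 0.00 over all tested genes. Because the contrast was known when the genes were chosen, nothing further is read from these counts. The authors' deposited table gives log2 fold changes of -0.86 for MAD2L1, -0.33 for CDC20, -0.30 for MAD1L1 and -0.13 for BUB3, from the same libraries.

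**Figure D2:**
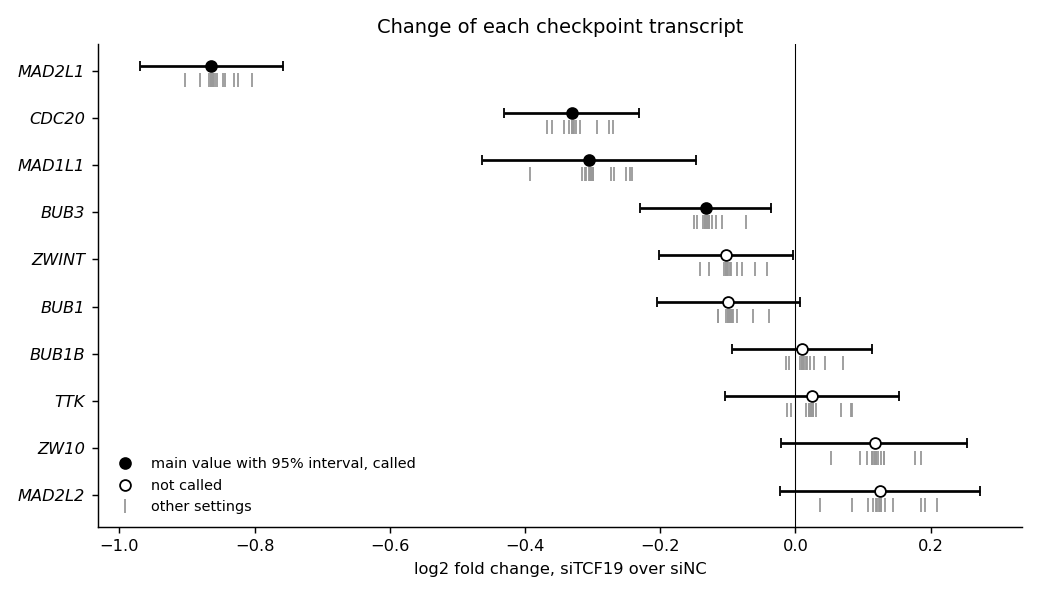
Log2 fold change of siTCF19 over siNC (horizontal axis) for each checkpoint gene, with its 95% interval, filled where called and open where not, and grey ticks for the 16 other settings. The MAD2L1 ticks span -0.90 to -0.80 and stay apart from those of the other 9 genes.

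Levels were compared between genes per length, in the FPKM values (fragments scaled to gene length and library size) that the authors deposited. The length is that of all annotated exons of a gene, 2038 bases for CDC20, 5748 for MAD2L1, 7230 for MAD1L1 and 8300 for BUB3. A gene with shorter transcripts in use would be put too low, so the order between genes depends on this length. In siNC the order was CDC20 (135.9 ± 8.99 FPKM), ZWINT (92.42 ± 3.49), MAD2L1 (28.92 ± 1.49), BUB1B (27.84 ± 0.70), BUB3 (22.13 ± 0.50), BUB1 (19.43 ± 0.45), ZW10 (16.32 ± 0.49), MAD2L2 (15.05 ± 1.18), TTK (13.84 ± 0.76) and MAD1L1 (5.62 ± 0.62; SD, n = 3 for each). The libraries of MAD2L1 and BUB1B overlapped in this order, as did those of ZW10 and MAD2L2 and those of MAD2L2 and TTK, and the other neighbours did not. In siTCF19, MAD2L1 stood at 15.88 ± 0.49 FPKM and had moved from rank 3 to rank 8. It then overlapped with MAD2L2 (16.41 ± 1.95 FPKM), its relative, and lay above TTK (14.06 ± 0.94 FPKM) without overlap. CDC20 remained first at 108 ± 5.05 FPKM and MAD1L1 last at 4.55 ± 0.18 FPKM.

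**Figure D3:**
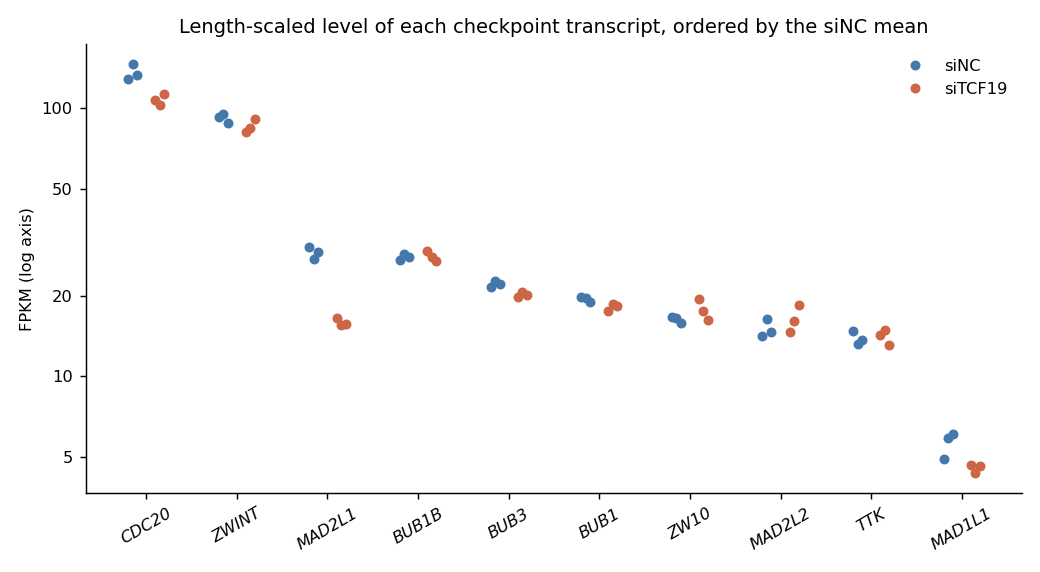
FPKM of each checkpoint transcript (vertical log axis) in the 3 siNC (blue) and 3 siTCF19 (orange) libraries, ordered by the siNC mean. MAD2L1 lies beside BUB1B in siNC, near 28.92 FPKM, and beside MAD2L2 in siTCF19, near 15.88 FPKM.

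Ratios of FPKM within each library describe the balance of the transcripts that encode partners. MAD2L1 stood at 1.12, 0.96 and 1.04 times BUB1B in siNC and at 0.56, 0.56 and 0.58 times in siTCF19. Against its anchor MAD1L1 it stood at 6.17, 4.66 and 4.79 times in siNC and 3.52, 3.58 and 3.38 times in siTCF19. Neither ratio overlapped between the groups, but both hold MAD2L1, on whose difference the genes were selected. This lack of overlap and the MAD2L1 share that follows are therefore no separate results. Of the summed FPKM of the 4 mitotic checkpoint complex subunits, MAD2L1 made up 13.5 ± 1.22% in siNC and 9.23 ± 0.31% in siTCF19, and CDC20 63.2 ± 1.61% and 62.7 ± 1.42% (SD, n = 3 per group). The ratio of the related genes BUB1 and BUB1B was 0.70 ± 0.03 and 0.65 ± 0.05. These are ratios of transcripts and say nothing about protein amounts. Their size also depends on the annotated gene lengths, which are the same in both groups.

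Partners of the checkpoint were read from lists of known function, with adjusted p-values from the edgeR fit over all genes. Their counts stand beside the 20.8% of all tested genes called lower and the 20.7% called higher, and their medians beside 0.00 over all tested genes; nothing is called particular to a list from them. Of 12 genes that anchor, remodel or silence the checkpoint, 7 were called lower and 2 higher, with a median log2 fold change of -0.23. PPP1CA, a catalytic subunit of protein phosphatase 1, which opposes checkpoint phosphorylation, was at 267.1, 295.8 and 274.2 CPM in siNC and 91.3, 86.63 and 92.72 CPM in siTCF19. It fell 3.09-fold (95% interval 2.88 to 3.32; adjusted p = 5.96e-27), further than any of the 10 checkpoint genes. USP44, a deubiquitinase that stabilises the complex of CDC20 and MAD2L1, was a low transcript and fell from 6.24 to 3.24 CPM (adjusted p = 2.93e-05).

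MAD2L1BP (p31comet), which works with TRIP13 to open MAD2L1 again, fell by 0.34 on the log2 scale (adjusted p = 0.00323), while TRIP13 differed by -0.07 (adjusted p = 0.339). The BUB3 partner ZNF207 (BuGZ) fell by 0.23 (adjusted p = 8.11e-05) and RAE1, a relative of BUB3 in mRNA export, by 0.34 (adjusted p = 2.31e-05). TPR, the nuclear pore protein that anchors MAD1L1 between mitoses, differed by 0.05 on that scale (adjusted p = 0.437). The higher calls were PPP2R5E (0.17, adjusted p = 0.0253) and PPP2R5C (0.12, adjusted p = 0.0419), regulatory subunits of protein phosphatase 2A. They were named after their values were seen, and the count of 2 higher fell to 0 on the log2(FPKM + 1) scale, at an adjusted p under 0.01 and when siNC replicate 2 or 3 or siTCF19 replicate 1 or 2 was left out, and to 1 with no filter, with DESeq2 and without siNC replicate 1. Over the 83 genes of the 8 partner lists, 10 (12%) carried a 3' UTR word, near the 13% of tested protein-coding genes. Of these carriers PPP1CA, USP44, PPP2R5D (-0.27) and POLD3 were called lower, SEC22B, TP53BP1 and ANAPC16 (0.16) higher, and PPP2R5A (-0.01), ANAPC10 (0.14) and HASPIN (-0.15) were not called.

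**Figure D4:**
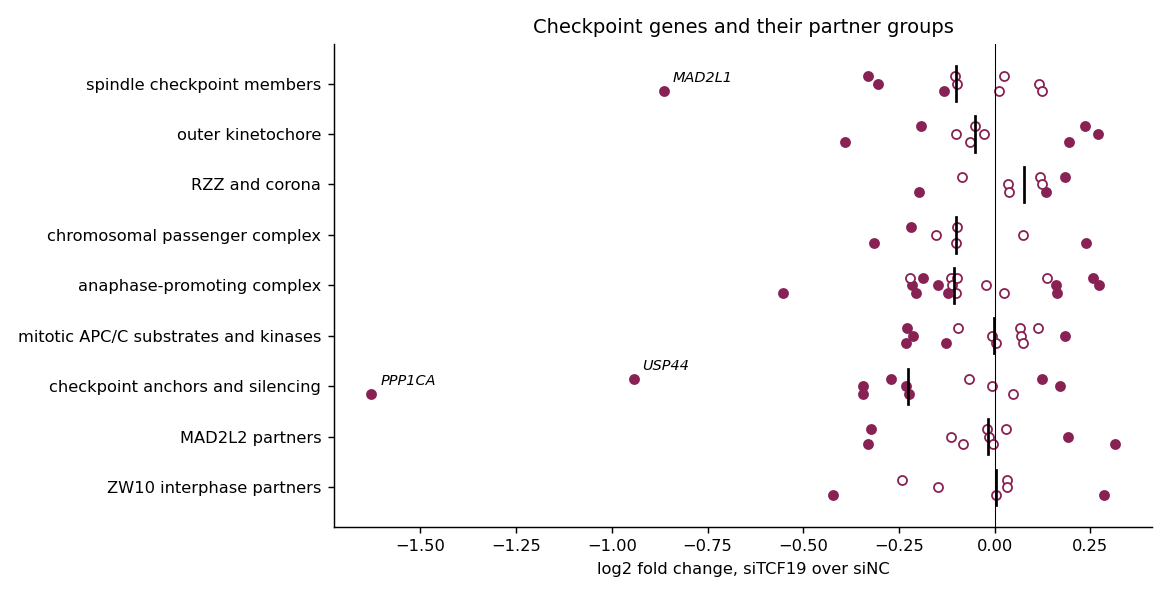
Log2 fold change of siTCF19 over siNC (horizontal axis) for the checkpoint genes (top) and 8 partner groups, filled where called and open where not, with a bar at each group's median. PPP1CA (-1.63), USP44 (-0.94) and MAD2L1 (-0.86) stand apart to the left.

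Of 9 genes of the NDC80, MIS12 and KNL1 complexes, the part of the kinetochore that the checkpoint reads, 3 were called higher and 2 lower, with a median log2 fold change of -0.05. NDC80, a microtubule-binding subunit, rose by 0.27 (adjusted p = 0.00106) and its complex partner SPC24 fell by 0.39 (adjusted p = 5.89e-07). NSL1 (0.24, adjusted p = 0.00613) and DSN1 (0.19, adjusted p = 0.00816) of the MIS12 complex rose, and the DSN1 call was lost without siNC replicate 2 (0.16, adjusted p = 0.0568). The other lower gene, SPC25 (-0.19, adjusted p = 0.0473), was called lower at the edge of the threshold, and the count of 2 lower was 1 in 11 of the 16 other settings. KNL1, the scaffold that TTK phosphorylates, was at 131.6 and 129 CPM.

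Of 8 genes beside ZW10 and ZWINT at the kinetochore corona, 2 were called higher and 1 lower (median 0.08). CENPF, a large farnesylated corona protein, fell by 0.20 (adjusted p = 0.000416). KNTC1 (ROD), a direct partner of ZW10, rose by 0.18 (adjusted p = 0.0101) and the dynein light chain gene DYNLL1 by 0.13 (adjusted p = 0.0305). The KNTC1 call was lost without siTCF19 replicate 2 (adjusted p = 0.0821) and on the log2(FPKM + 1) scale (0.0866). The DYNLL1 call was lost without siNC replicate 1 (adjusted p = 0.108), siNC replicate 3 (0.153) or siTCF19 replicate 2 (0.109), with no filter (0.0535) and on the log2(FPKM + 1) scale (0.0663). In the chromosomal passenger group, which corrects faulty attachments, CDCA8 (-0.32, adjusted p = 2.08e-05) and BIRC5 (-0.22, adjusted p = 0.000399) fell among 7 genes. SGO1, the protector of centromere cohesion, rose by 0.24 (adjusted p = 0.0178), a call lost without siNC replicate 2 (adjusted p = 0.115) or siTCF19 replicate 2 (0.0591). The kinase AURKB differed by -0.10 (adjusted p = 0.216).

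Downstream of CDC20, 4 of 18 genes of the anaphase-promoting complex and its enzymes were called higher and 6 lower, with a median of -0.11. ANAPC11, the RING subunit, rose by 0.27 (adjusted p = 3.82e-05) and ANAPC13 by 0.26 (adjusted p = 0.000715). ANAPC7 (-0.21, adjusted p = 0.00136) and ANAPC15 (-0.55, adjusted p = 0.00175) fell, and ANAPC15 promotes turnover of the checkpoint complex. ANAPC15 was a low transcript, at 9.965, 10.18 and 9.495 CPM in siNC and 8.225, 5.343 and 6.577 CPM in siTCF19. The count of 6 lower was 2 with library-size-only scaling, without siNC replicate 2 and at an adjusted p under 0.01, and 3 on the log2(FPKM + 1) scale and without siTCF19 replicate 2. Of 12 substrates and mitotic kinases, 1 was called higher and 4 lower, with a median of 0.00. Cyclin B1 (CCNB1, -0.23, adjusted p = 0.000103), securin (PTTG1, -0.23, adjusted p = 0.00137) and separase (ESPL1, -0.21, adjusted p = 0.000255), which CDC20-bound ligase breaks down or, for separase, sets free, fell. CDK1, the partner kinase of CCNB1, rose by 0.18 (adjusted p = 0.00275), and with library-size-only scaling 4 of the 12 were called higher. A list of 9 proliferation genes, which includes the inhibitor gene CDKN1A, was also split, with 5 called higher and 3 lower. CCND1 rose by 0.50, CCNE1 by 0.45, CCNE2 by 0.43 and TOP2A by 0.27. TYMS fell by 0.55, PCNA by 0.21 and MKI67 by 0.15. CDKN1A, among the 5 higher, rose from 32.9 to 161.1 CPM, and as an inhibitor it is not a sign of more proliferation. In these bulk samples fewer mitotic cells and less RNA per cell cannot be told apart.

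Partners were also read for the 2 members with a second function. Of 10 partners of MAD2L2, 2 were called lower and 2 higher, close to the 41.5% of all tested genes called in either direction. POLD2 (-0.32, adjusted p = 4.95e-07) and POLD3 (-0.33, adjusted p = 8.77e-05) fell, while REV3L (0.32, adjusted p = 8.88e-06), the catalytic subunit of polymerase zeta, and TP53BP1 (0.19, adjusted p = 0.0031) rose. Of 7 genes of the tethering complex in which ZW10 works between mitoses and of its SNAREs, 1 was called higher and 1 lower: SEC22B rose by 0.29 (adjusted p = 8.46e-05) and SCFD2 fell by 0.42 (adjusted p = 4.19e-05). RINT1 and NBAS, the direct partners of ZW10 there, had log2 fold changes of 0.00 (adjusted p = 0.971) and -0.15 (adjusted p = 0.0623).

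The 5 protein-coding genes whose log2 CPM profile over the 6 libraries was nearest to that of MAD2L1, by Euclidean distance after centring and among 10961 genes that averaged 5 CPM or more, were DDX31, NFIA, IGF2BP1, MRPL3 and PRKAB2. Their distances were 0.069 to 0.098 and their log2 fold changes -0.79 to -0.91, so likeness here mostly reflects a like difference between the groups. None of the other checkpoint genes was among them. The lowest of their log2 fold changes was -0.33 (CDC20), so this follows from the differences already given and is no separate result.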

How the data were processed

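RNA was measured in 3 siNC and 3 siTCF19 libraries, grouped by their titles. The submitters' processing notes name HISAT2 2.0.5 for alignment, featureCounts 1.5.0-p3 for counting and the build hg38. Strand and multi-mapping settings: not given in the sources used here. Per the file headers, the deposited table holds read counts and FPKM per library, and the authors' mean signal per group, log2 fold change, p-value and adjusted p-value. For the comparison columns the tool is likewise not stated there.

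Counts were filtered with filterByExpr, scaled by TMM and tested with edgeR 4.0.16 (glmQLFit, glmQLFTest; R 4.3.3), group as the only term, with Benjamini-Hochberg adjustment over 17299 genes; called means an adjusted p under 0.05. Standard errors come from the quasi-likelihood F, and 95% intervals from them. Member counts ran from 477 to 4708, and intervals cover the spread between libraries, which may be technical. No 2 libraries were duplicates: chi-square per degree of freedom was 2.29 to 3.78 within groups. DESeq2 1.42.0, limma 3.58.1 (voom, and trend on log2(FPKM + 1)), 3 other scalings, 2 other filters, an adjusted p under 0.01, a replicate block and each library left out were alternatives. The edgeR, DESeq2 and limma-voom fits were tried on simulated counts with a fixed dispersion, and the nearest-profile step on random values. The no-filter setting, the log2(FPKM + 1) scale, the left-out libraries and the UTR and promoter searches were not tried in this way. Results of these trials are not given here.

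The members and lists were chosen with earlier results of these data known. Named were TCF19, the 10 members, up to 4 called genes per partner list by lowest p, or the 2 most abundant where none was called, and the 5 nearest profiles to MAD2L1; others were added for their role or after their values were seen. Gene positions are those of the table (GENCODE release 29), and 3' UTR words were searched in the longest 3' UTR of its coding transcripts. Text processing and figures used Python 3.11.15, pandas 2.3.3 and matplotlib 3.10.9.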

Additional observations from a re-analysis of the deposited data

How the results depend on the processing

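Over the 16 alternatives the log2 fold changes of MAD2L1, CDC20 and MAD1L1 ran from -0.90 to -0.80, -0.37 to -0.27 and -0.39 to -0.24. Because the genes were selected on this contrast, these ranges show only how far the processing moves the values. BUB3 kept its sign but lost its call in 7 of the 16. The number of checkpoint genes called higher, 0, became 2 with library-size-only scaling and 0 to 1 when single libraries were left out; the number called lower was then 3 to 4. BUB1B and TTK, not called in any, changed sign in 2 alternatives each. Of all calls 49.92% were higher; scaling by library size alone made that 61.35% and shifted the median difference of the tested genes from 0.00 to 0.06 (log2). The labels share replicate numbers between the groups. Deviations from the group mean over 11787 genes had r = 0.027, -0.162 and -0.0211 between same-numbered libraries. Differently numbered ones gave -0.141 to 0.157. With 3 libraries per group this cannot show whether the numbers mark shared cultures. With the replicate block 6874 genes were called against 7183, and 3 checkpoint genes were lower and 0 higher. BUB3 and DYNLL1 (adjusted p = 0.054) were then not called, and 1 of the 12 anchoring and silencing genes, in place of 2, was called higher.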
